A study of Saccharomyces cerevisiae with 6 samples.

Results

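The YRF1 genes of budding yeast (Saccharomyces cerevisiae) encode helicases carried within the Y′ elements, repeated blocks of DNA at chromosome ends. They were measured by the 24 probe sets whose platform annotation lists a symbol starting with YRF1-, out of 9275 non-control probe sets on the array. The mutant group was 3 arrays from cells whose histone H3 carries arginine in place of lysines 4, 36 and 79, and the other group was 3 arrays from the wild-type strain. Cells of both groups grew in selective galactose medium and were then held for 6 h in selective glucose medium. Per the series design, glucose switches off wild-type H3 in the mutant cultures, so that the substituted form is left as the only H3. The labels name no strain background or plasmid, and any such difference between the groups cannot be told apart from the substitutions.

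Y′ elements lie next to the terminal telomere repeats at many, but not all, chromosome ends, and their sequence is nearly the same from end to end. The Yrf1 helicases are best known from cells without telomerase, where Y′ elements spread between chromosome ends by recombination and YRF1 transcripts become more abundant. In cells with telomerase, genes near the ends are subject to silencing by the Sir proteins, and methylation of H3 by Set1, Set2 and Dot1, at the lysines that were replaced here, is known to bear on where silent chromatin forms.

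The annotation lists 33 genes for the 24 probe sets. They comprise the 8 YRF1 genes and 25 other names, most of them reading frames of other Y′ elements such as YIL177C and YJL225C. YRF1-3, YRF1-6 and YRF1-7 are listed for all 24 probe sets, and YRF1-4 for 15. Only 3734_s_at, with all 8 YRF1 genes, and 3736_s_at, with all but YRF1-4, list YRF1 genes alone. No probe set lists any of the 33 genes without a YRF1 gene, so the 18 Y′ reading frames without a YRF1 name that were listed for comparison had no probe set of their own. The probe sets are therefore overlapping measures of a family that shares sequence, not independent readings of single genes. The arrays read RNA, so less RNA from each Y′ copy and fewer Y′ copies in the genome cannot be told apart.

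Probe sets also differ in which shorter Y′ reading frames they list, which gives a rough order along the element. On chromosome II the gene table places YBL113C first from the left end, then YBL112C and then YBL111C, and on chromosome VIII YHR219W is the last gene of the right arm, with YHR218W inside it. YBL113C and YHR219W are listed together for 7 probe sets, called end-side below, and YBL111C and YHR218W for another 7, called inner. The remaining 10 list neither pair. This grouping was made after the values were seen.

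**Figure D1:**
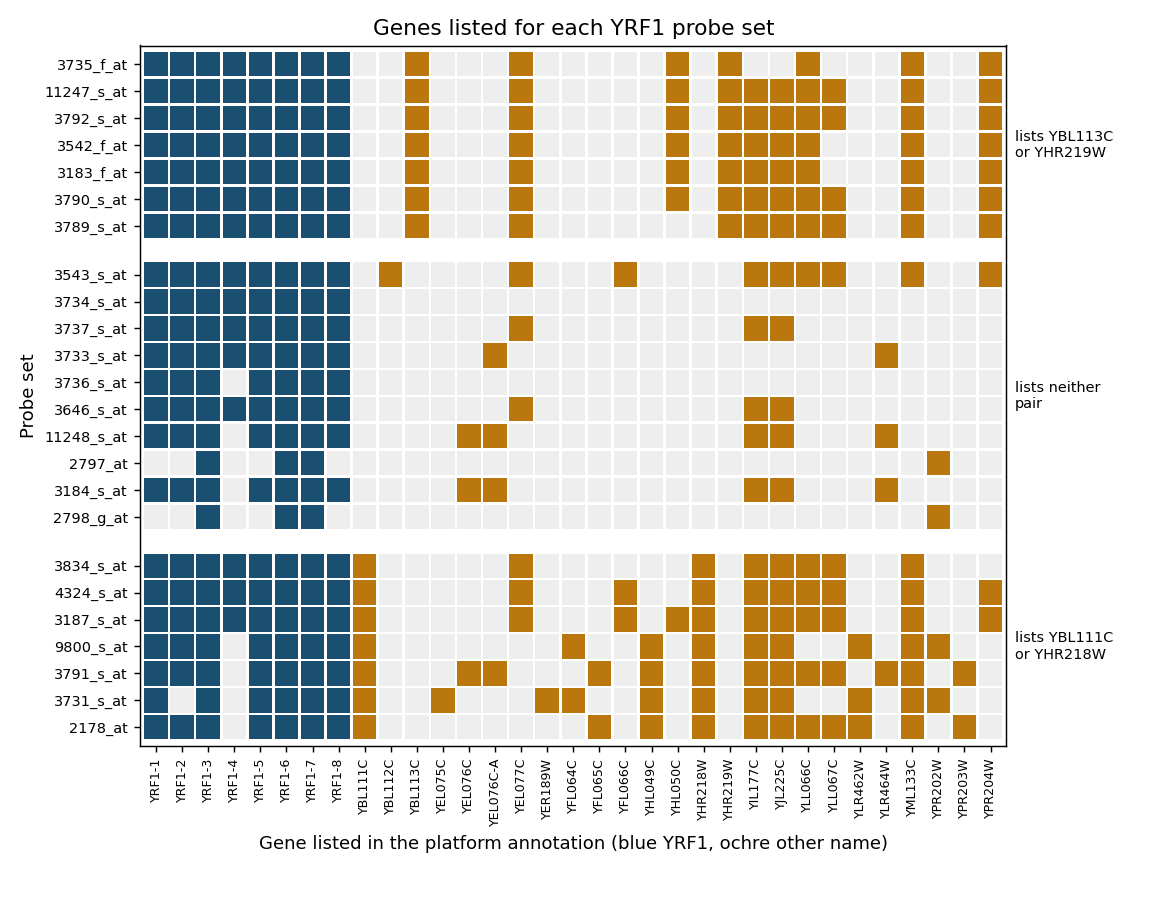
Each row is a YRF1 probe set and each column a gene of the platform annotation, with a filled square where the gene is listed, blue for the 8 YRF1 genes and ochre for the 25 other names. Rows are grouped by whether they list YBL113C and YHR219W (7), neither pair (10) or YBL111C and YHR218W (7), and 2 rows hold blue squares only.

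Signals below are MAS5 intensities on a linear scale, with each array brought to a 2% trimmed mean of 500. Differences are mutant minus wild type on log2(signal + 16), a scale on which dim probe sets show less than their full change. The family was taken up with this contrast already known, so its differences are given as a description with their SE over 3 arrays a group, and no test is attached to them. Signal was lower in the mutant for most of the family. The mean was lower in the mutant for 23 of 24 probe sets, and in 19 of 24 every mutant array lay below every wild-type array, while none lay wholly above. Over all 9275 non-control probe sets, 11.1% had every mutant array below every wild-type array and 12.1% had every mutant array above. The median of the 24 differences was -1.22, against 0.02 over all 6808 probe sets that passed a signal filter of 50. A mean signal of at least 50 was reached by 16 of the 24. Averaged over all 24 probe sets, the log2 level was 7.47, 6.95 and 6.89 on mutant replicates 1, 2 and 3, against 8.24, 8.21 and 8.23 on the wild-type arrays. The wild-type arrays thus lay close together, while mutant replicate 1 lay above the other mutant arrays and below every wild-type array.

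**Figure D2:**
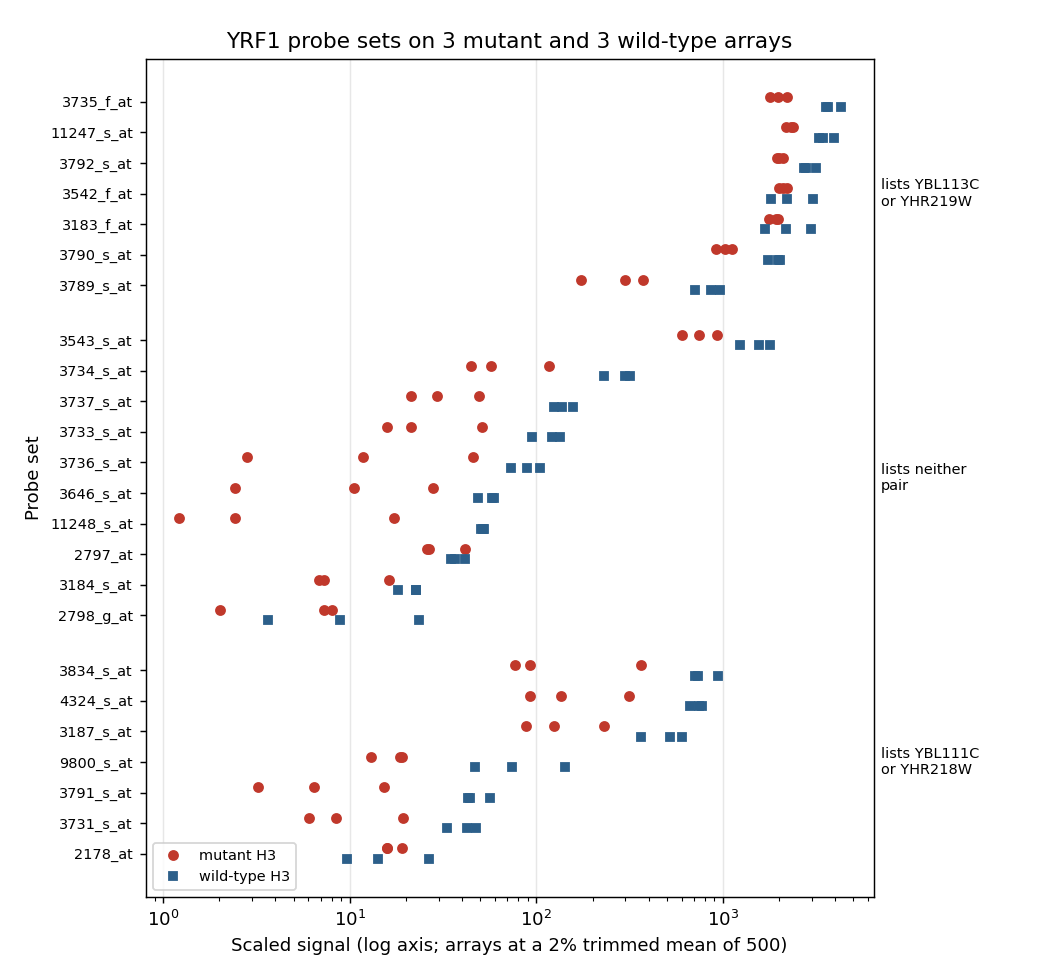
Scaled signal (log axis) of the 24 YRF1 probe sets, with a red circle for each of 3 mutant arrays above a blue square for each of 3 wild-type arrays, and rows grouped by the shorter Y′ reading frames they list. In 19 rows all circles lie left of all squares, and in the other 5 the groups overlap.

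The probe sets that list YRF1 genes alone were clearly separated. For 3734_s_at, which lists all 8 helicase genes, signals were 117, 44.9 and 57.3 on mutant replicates 1, 2 and 3, against 316, 230.1 and 298 on the wild-type arrays. Every mutant array lay well below the lowest wild-type array. The mutant mean of 73.2 ± 38.8 was 26.0% of the wild-type mean of 281 ± 45.5 (SD, n = 3 each), a difference of -1.81 (SE 0.37). For 3736_s_at, without YRF1-4, the mutant arrays read 45.6, 2.83 and 11.7, against 89.3, 73.5 and 104 on the wild-type arrays. All mutant readings were under 50, with mutant replicate 1 the highest, and the difference of -1.71 (SE 0.52) carries little information about size.

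Among the 7 inner probe sets, 6 had no overlap between the groups, and their median difference was -1.56. The largest difference of the family was that of 3834_s_at, with 363, 77.2 and 92.9 on mutant replicates 1, 2 and 3, against 936, 734 and 711 on the wild-type arrays. Every mutant array lay well below every wild-type array, but mutant replicate 1 stood far above the other mutant arrays. The difference was -2.36 (SE 0.65), the most negative of the 6808 probe sets tested across the array. The next most negative was also a member, 4324_s_at, with 315, 135 and 92.1 on the mutant arrays, against 741, 662 and 772 on the wild-type arrays (difference -2.07, SE 0.48). In 3187_s_at the mutant arrays read 231, 124 and 88.4, against 607, 521 and 363 on the wild-type arrays, again with mutant replicate 1 highest (difference -1.71, SE 0.42). The ranking uses the same contrast by which the family was chosen.

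Dimmer inner probe sets showed the same separation with values near the low end of the scale. In 9800_s_at the mutant arrays read 19.0, 18.6 and 12.9, against 74.3, 46.8 and 143 on the wild-type arrays (difference -1.56, SE 0.40). Its wild-type arrays were widely spread and its mutant arrays were close together. Mutant signals were 15.3, 6.47 and 3.23 for 3791_s_at, against 44.0, 43.2 and 56.1 on the wild-type arrays. Those of 3731_s_at were 19.4, 6.06 and 8.48, against 33.1, 42.4 and 47.7 on the wild-type arrays. The exception was 2178_at, which was dim in both groups, with 15.7, 15.8 and 19.0 on the mutant arrays, against 9.70, 14.1 and 26.7 on the wild-type arrays. It was the single member with a positive difference, 0.03 (SE 0.22), within the spread of its arrays, and the sign turned negative when intensities were used as deposited.

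The 7 end-side probe sets kept more of their signal, with a median difference of -0.63, and 5 of them had no overlap between the groups. For 3735_f_at the mutant arrays read 1969, 2192 and 1791, against 3669.5, 3556 and 4266 on the wild-type arrays, so that the mutant mean was 51.8% of the wild-type mean (difference -0.94, SE 0.12). In 11247_s_at the mutant arrays held 2169.9, 2365 and 2326, against 3438, 3939 and 3282 on the wild-type arrays (difference -0.63, SE 0.09). Mutant replicate 1 was the lowest mutant array there, whereas it was the highest in 6 of the 7 inner probe sets. In 3792_s_at signals were 1951, 1988 and 2091 on the mutant arrays, against 2731, 3169 and 2799.8 on the wild-type arrays (difference -0.52, SE 0.07). A wider gap was seen in 3790_s_at, with 1116, 1029 and 916 on the mutant arrays, against 1978, 2031 and 1754 on the wild-type arrays (difference -0.90, SE 0.10).

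The end-side probe sets did not all behave alike. At 3789_s_at the mutant arrays read 371, 299 and 173, against 967, 861 and 712 on the wild-type arrays. Its mutant mean was 33.2% of the wild-type mean, the lowest share of the 7 (difference -1.59, SE 0.33). At the other extreme, 3542_f_at read 2213.5, 2003 and 2093 on the mutant arrays, against 2204, 3021 and 1811 on the wild-type arrays, and the groups overlapped (difference -0.13, SE 0.22). Similarly, 3183_f_at had 1760.1, 1935 and 1962 on the mutant arrays, against 1686, 2956 and 2166 on the wild-type arrays (difference -0.23, SE 0.24). In both of these the wild-type arrays spread far more than the mutant arrays, and wild-type replicate 2 was the highest. These probe sets list the same 17 genes, all 8 YRF1 genes among them.

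Of the other 8 probe sets that list neither pair, those that also name YEL077C, the first gene of the left end of chromosome V, differed in size of change. In 3543_s_at, the only member that lists YBL112C, the mutant arrays read 932, 741 and 607, against 1559.8, 1788 and 1229 on the wild-type arrays, and the mutant mean was 49.8% of the wild-type mean (difference -0.99, SE 0.23). In 3737_s_at they read 49.3, 29.5 and 21.4, against 138, 125 and 157 on the wild-type arrays (difference -1.69, SE 0.25). The other one, 3646_s_at, gave 27.9, 2.43 and 10.5 on the mutant arrays, against 58.2, 59.3 and 48.5 on the wild-type arrays, and mutant replicate 1 was again the highest mutant array. The last pair list the same 11 genes, and their mutant means were 23.9% and 24.6% of the wild-type means.

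The 3 of these probe sets that list YEL076C-A, with or without YEL076C, which lies farther from that chromosome end than YEL077C, also had no overlap between groups. The values of 3733_s_at were 50.9, 21.4 and 15.8 on the mutant arrays, against 122, 94.9 and 134 on the wild-type arrays (difference -1.62, SE 0.35). For 11248_s_at they were 17.4, 2.43 and 1.21 on the mutant arrays, against 52.5, 51.7 and 50.5 on the wild-type arrays. The mutant mean was 13.6% of the wild-type mean of 51.6, the lowest share of the 24, although values this low carry little information about size. For 3184_s_at, which lists the same 12 genes as 11248_s_at, the mutant arrays gave 16.2, 6.87 and 7.27, against 18.2, 22.6 and 22.6 on the wild-type arrays. Both remaining members list YPR202W with only YRF1-3, YRF1-6 and YRF1-7, and in both the groups overlapped. Of these, 2797_at read 26.6, 41.2 and 25.8 on the mutant arrays, against 41.6, 36.7 and 34.7 on the wild-type arrays. In 2798_g_at all 6 arrays lay between 2.02 and 23.4.

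The share of signal kept in the mutant was largest in the brightest probe sets and in some of the dimmest. Of the 7 probe sets with a wild-type mean of at least 1000, 6 are end-side, and the mutant means were 49.8% to 89.7% of the wild-type means. In the 5 with wild-type means of 200 to 1000 the shares were 22.4% to 33.2%. In the 6 with means of 50 to 200 they were 13.6% to 25.1%, with most mutant readings under 50, so these shares have no firm size. In the 6 under 50 they were 17.5% to 100.04%, with a median of 48.0%, and the groups overlapped in 3 of them. Brightness and position in the element go together here, and their parts in the smaller difference of the end-side probe sets were not tested. Signal differs between probe sets with their probes, so it is not an amount of RNA that can be compared from one to another.

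Mutant replicate 1 stood apart from the other mutant arrays within this family. It was the highest mutant array in 17 of 24 probe sets, in 6 of the 7 inner ones and in 3 of the 7 end-side ones. The 24 share sequence, so these counts are not separate readings, and the share over the whole array is not given here. The median share of the wild-type mean over the 24 probe sets was 50.8% on mutant replicate 1, 23.1% on replicate 2 and 20.6% on replicate 3. Among the inner probe sets these medians were 45.7%, 18.6% and 14.7%, whereas among the end-side probe sets they were 61.1%, 66.6% and 65.5%. Without mutant replicate 1 the median difference of the 24 was -1.45. The groups were without overlap in 19, a number that leaving out an array cannot lower. Summed over the end-side probe sets the mutant arrays gave 11552, 11812 and 11352, close to each other, against 16675, 19533 and 16789.9 on the wild-type arrays. Summed over the inner ones they gave 979, 383 and 317, against 2445, 2063 and 2119 on the wild-type arrays, and here mutant replicate 1 stood above the other mutant arrays.

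**Figure D3:**
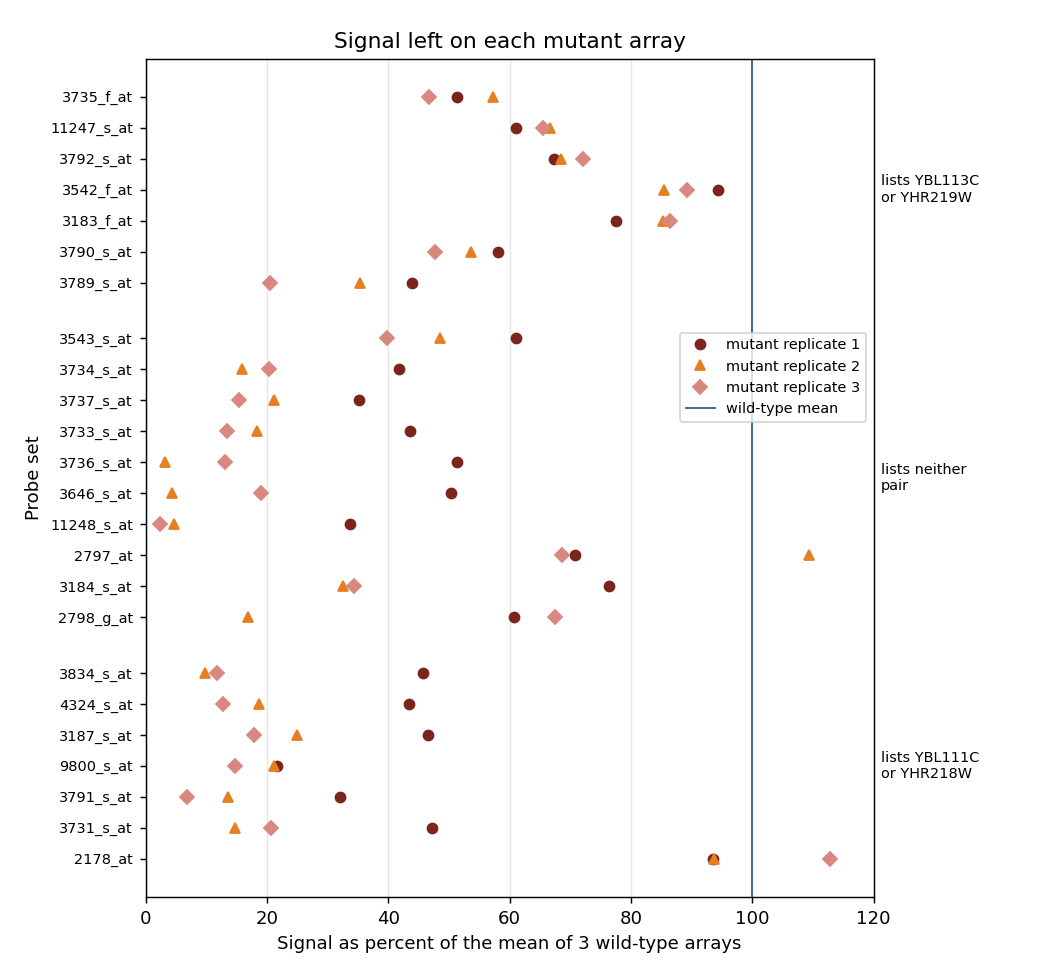
Signal of each mutant array as a percentage of the mean of 3 wild-type arrays (vertical line at 100), for the 24 YRF1 probe sets. Dark circles (mutant replicate 1) lie to the right of the triangles (replicate 2) and diamonds (replicate 3) in 17 rows, and the 3 symbols lie close together in most end-side rows.

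Correlations were taken among the 16 probe sets that reached a mean signal of 50. Some reached it only through the wild-type arrays, such as 3736_s_at, with means of 20.1 in the mutant and 89.0 in the wild type. Their pairwise Pearson correlation over the 6 arrays had a median of 0.88 (120 pairs, range -0.16 to 0.99), which includes the group difference and shared sequence. With each group's mean taken out, the median was 0.30, and pairs ranged from -0.92 to 0.98. The single genes whose log2 levels most resembled the family mean over the 6 arrays, among 5632 single-gene probe sets, were MRF1 (r = 0.998), KEL2 (0.994), TIM22, ACS2 and PTK1 (0.99 each). MRF1, a mitochondrial translation release factor, read 49.7, 36.8 and 36.8 on the mutant arrays, against 68.3, 69.8 and 67.4 on the wild-type arrays. Its pattern followed that of the family, with mutant replicate 1 between the other mutant arrays and the wild type. All its mutant readings were under 50, so it reached the filter only through the wild-type arrays. For these single genes too, the coefficients over the 6 arrays include the group difference. KEL2, a kelch-domain protein of the cell cortex, read 117, 98.6 and 97.3 on the mutant arrays, against 159, 150.1 and 147 on the wild-type arrays. TIM22 encodes a mitochondrial inner-membrane translocase subunit, ACS2 an acetyl-CoA synthetase and PTK1 a protein kinase, and their differences were -0.36, -0.20 and -0.94. For PTK1, 2 other probe sets gave -0.33 and -0.84. After the group means were taken out, the most similar were VOA1, GUT2, PTP2, MRF1 and SEC72 (r = 0.978 to 0.991). GUT2, the mitochondrial glycerol-3-phosphate dehydrogenase, read 660.2, 423 and 392 on the mutant arrays, against 498, 523 and 518 on the wild-type arrays, and PTP2, a protein phosphatase, 239, 152 and 135 on the mutant arrays, against 162, 161 and 151 on the wild-type arrays. With 6 arrays and 5632 probe sets, high coefficients of this kind are easily found.

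The genes next to the YRF1 genes were examined because they were not chosen by the helicase signal. In the gene table each of the 8 YRF1 genes is the last or the last but 1 at a chromosome end. The 5 nearest genes on the centromere side of each, with 18 listed Y′ reading frames left out, came to 35 different genes. One of them, YER189W beside YRF1-2, is itself listed with YRF1 genes and has no probe set of its own. Of the 35, 16 had a probe set that lists that gene alone, and 14 reached the signal filter. Listing a gene alone does not show that related genes add no signal. In the limma test across all 6808 probe sets, 0.896% were called higher and 1.35% lower at an adjusted p under 0.05, which makes 2.25% in either direction. Of the 14 neighbours, 1 was called higher and 1 lower, and the median difference was -0.29. COS6, a subtelomeric membrane protein gene next to YRF1-3, read 1296, 1325 and 1512 on the mutant arrays, against 2431, 1846 and 2499 on the wild-type arrays. The groups did not overlap, and COS6 fell by 0.70 (SE 0.15, limma adjusted p = 0.045), though the call was lost without wild-type replicate 1 (adjusted p = 0.177), wild-type replicate 3 (0.182), mutant replicate 1 (0.126) or mutant replicate 3 (0.0701), with no filter (0.0673) and with no intensity trend (0.0576). MAL11, a maltose transporter gene on the same arm, rose, with 387, 469 and 369.9 on the mutant arrays, against 193, 204 and 192 on the wild-type arrays (difference 0.99, SE 0.14, limma adjusted p = 0.010). Its adjusted p was 0.0505 without wild-type replicate 1.

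Among neighbours without a call, YDR541C, near YRF1-1, read 90.9, 135 and 113 on the mutant arrays, against 191, 197 and 166 on the wild-type arrays (difference -0.65, SE 0.17, limma adjusted p = 0.083). GAB1, a subunit of the GPI transamidase, lies inside YRF1-4 and YRF1-5 and read 449, 527 and 419.6 on the mutant arrays, against 768, 639.7 and 691 on the wild-type arrays (difference -0.58, SE 0.14, limma adjusted p = 0.073). YLR460C, also inside YRF1-4 and YRF1-5, read 70.3, 68.7 and 82.0 on the mutant arrays, against 96.6, 109.8 and 97.7 on the wild-type arrays (difference -0.39, SE 0.15, limma adjusted p = 0.193). The groups did not overlap for any of these 3, but they were named for the smallest p among the neighbours without a call. Over all 9275 non-control probe sets, 11.1% had every mutant array below every wild-type array. The remaining tested neighbours were not called. For YRF1-6, YRF1-7 and YRF1-8 none of the 5 nearest genes had a probe set of its own, so the surroundings of those copies were not measured.

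Other genes were tested as 4 lists: telomerase and end protection, recombination, DNA helicases other than Yrf1, and silencing. In the list of 19 genes of telomerase and telomere end protection, 15 were tested, 1 was called higher and none lower by limma (4 higher and 2 lower at an unadjusted p under 0.05), with a median difference of 0.03. Over all 6808 probe sets, 10.7% were higher and 8.92% lower at an unadjusted p under 0.05, and the same shares apply to the counts of the other lists. TEL1, the checkpoint kinase that helps recruit telomerase to short telomeres, was the call, with a mean of 362 ± 81.2 in the mutant and 178 ± 13.5 in the wild type (SD, n = 3 each). TEL1 rose by 0.94 (SE 0.17, limma adjusted p = 0.025), but with any array other than mutant replicate 2 left out the adjusted p was 0.0508 to 0.0890, and with no filter it was 0.0508. Among those without a call, RAD50, of the nuclease complex that processes ends, differed by 0.75 (limma adjusted p = 0.076) and EST3, a telomerase subunit, by -0.53 (0.097). TLC1, the telomerase RNA, read 386 ± 68.5 in the mutant and 419 ± 15.4 in the wild type (SD, n = 3 each, limma adjusted p = 0.69).

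No call was made among 10 tested genes of the recombination pathway that maintains telomeres without telomerase, with a median of 0.31 (3 higher and none lower at an unadjusted p under 0.05, limma). RDH54, a DNA translocase, differed by 0.41 (limma adjusted p = 0.17) and RAD54, its paralogue, by 0.35 (0.24), while RAD52, on which this recombination depends, differed by 0.27 (0.40). Nor was any of 19 other DNA helicase genes called, at a median of 0.26, with 6 higher and none lower at an unadjusted p under 0.05. SEN1, a helicase that unwinds RNA and DNA, differed by 0.49 (limma adjusted p = 0.091), and DNA2, a helicase and nuclease of replication, by 0.56 (0.095). Of 7 tested genes for silencing proteins and for the enzymes that methylate the replaced lysines, none was called at a median of 0.30, with 2 higher and none lower at an unadjusted p under 0.05. SIR4, a structural Sir protein, differed by 0.57 (limma adjusted p = 0.149) and SIR2, the deacetylase, by 0.34 (0.206). A limma adjusted p above the threshold does not show that these genes were equal in the groups. When the deposited intensities were not rescaled, the median difference of the whole array was -0.22, and at an unadjusted p under 0.05 the 4 lists then held 2 higher and 7 lower genes, against 15 and 2 after scaling. Of all probe sets tested without rescaling, 2.37% were higher and 27.6% lower at that threshold.

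**Figure D4:**
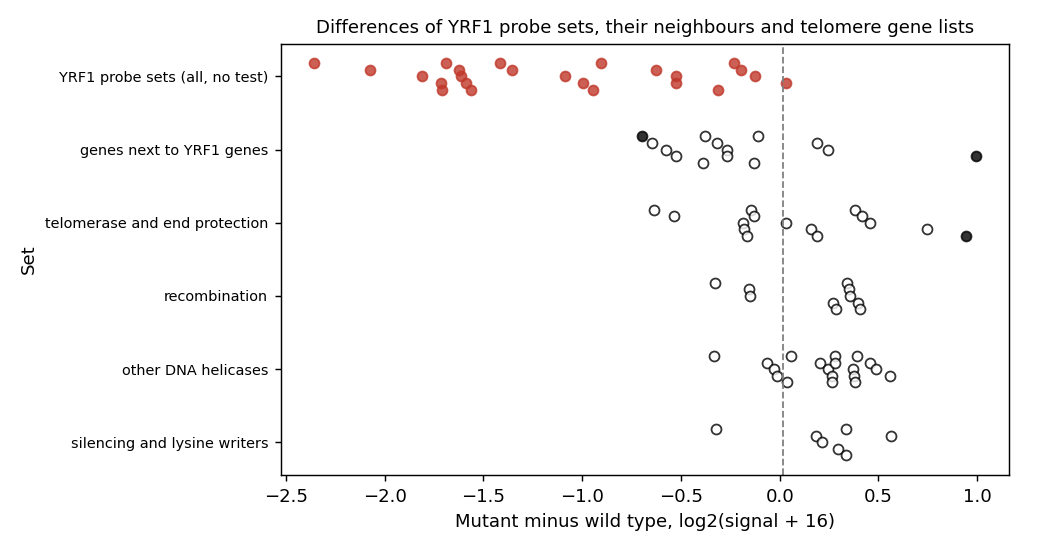
Difference of mutant minus wild type on log2(signal + 16), 1 point a probe set, for the 24 YRF1 probe sets (red, not tested), 14 neighbouring genes and 4 gene lists (open, not called; filled, adjusted p under 0.05 by limma). The dashed line is the median of all 6808 probe sets tested (0.02), and the red points reach -2.36, beyond every point of the other sets.

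Across the array, log2 levels correlated at 0.964 to 0.983 within the mutant, 0.985 to 0.989 within the wild type and 0.961 to 0.981 between groups. A probe set annotated to both H3 genes, HHT1 and HHT2, averaged 956 ± 90.5 in the mutant and 2868 ± 87.2 in the wild type (SD, n = 3 each, limma adjusted p = 0.0013), while a brighter one did not pass the test (adjusted p = 0.648). None of 6 tested galactose genes was called by limma, nor had any an unadjusted p under 0.05. GAL1 was dim, at 37.2 ± 12.2 in the mutant and 29.2 ± 1.23 in the wild type, and GAL10 read 119 ± 41.8 in the mutant and 98.4 ± 16.5 in the wild type (SD, n = 3 each). No gene was called among 7 a-specific and 4 alpha-specific mating-type genes tested with limma. At an unadjusted p under 0.05, 3 a-specific genes were lower and none higher, while 1 alpha-specific gene was higher and none lower. Over all 6808 probe sets, 10.7% were higher and 8.92% lower at that threshold.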

How the data were processed

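RNA of 6 cultures was read on Affymetrix arrays, 3 a group, with groups and replicate numbers taken from the titles. The series design speaks of replicate cultures, so p-values measure the spread between these cultures. The authors deposited linear probe set intensities that come from MAS5 per the submitters' processing notes, which give no version. Trimmed means of the deposited mutant arrays were 0.888, 0.868 and 0.767 of the wild-type average for mutant replicates 1, 2 and 3, for a reason not given in the sources used here.

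After 60 control probe sets were dropped, arrays were rescaled to the same 2% trimmed mean, 500, and those factors are thereby removed. Values were analysed as log2(signal + 16). The 6808 probe sets averaging 50 or more were fitted in limma 3.58.1 under R 4.3.3, with variances moderated along an intensity trend and p-values adjusted over all of them by Benjamini-Hochberg. A call needs an adjusted p under 0.05. With 3 arrays a group the median SE of a difference was 0.16. All 24 YRF1 probe sets were described, whether or not they reached the filter, with an SE from the 3 values of each group. Other genes entered through the brightest probe set that lists that gene alone. The procedure was tested on simulated data.

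Names came from the platform annotation, and the 6504 single-gene probe sets all matched a gene table (assembly R64), which served only for names and gene order because the files name no build. A further 328 probe sets list several genes. The YRF1 members and the gene lists were chosen with earlier results of these data known. Besides the members, the rule for named genes took the called genes of each list or else up to 2 with the smallest p, the called neighbours and up to 3 others, and the 5 most similar genes by each measure. RAD50, EST3, TLC1 and RAD52 fall outside it and were named after their values were seen.

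Deviations of same-numbered mutant and wild-type arrays from their group means correlated at 0.13, 0.16 and 0.042, so the numbers were not taken as pairs. The alternatives changed the scaling (deposited, common median or quantile), the offset (1 or 64), the filter (none or 200), the trend, the replicate block, or left out 1 array.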

Additional observations from a re-analysis of the deposited data

How the results depend on the processing

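The median difference of the 24 YRF1 probe sets stayed negative under every setting run. It was -1.34 with the intensities as deposited, -1.23 with a common median and -1.16 with quantile normalization. It depended on the offset, at -1.73 with an offset of 1 and -0.79 with an offset of 64. It also depended on which members were used, at -1.57 for those with a mean signal of at least 50 and -1.46 for those of at least 30, the last chosen after seeing the data. That mean covers both groups, so it admits members high only on the wild-type arrays, such as 3736_s_at (20.1 in the mutant, 89.0 in the wild type). The medians of these selected members are therefore no separate support for the fall. Leaving out each array in turn gave a median of -1.45 to -1.04 for the 24. The number of YRF1 probe sets without overlap was 19 or 20. Another offset or the replicate block cannot change this number, and leaving out an array cannot lower it. Only the scaling could lower it, and it was 20 with deposited intensities and 19 with a common median or quantile normalization. Of 288 recomputed member differences over the settings, 24, of 15 probe sets, moved by more than the spread between arrays, all of them with another offset or the deposited scale. The 288 include those with the replicate block, which cannot change a difference when the groups are equal in size. The sign turned for 2178_at with the deposited intensities (-0.093), without wild-type replicate 1 (-0.13), wild-type replicate 2 (-0.014) or mutant replicate 3 (-0.015), and for 3542_f_at without wild-type replicate 2 (0.072). In both the groups overlapped, and leaving out each array gave -0.13 to 0.24 for 2178_at and -0.29 to 0.072 for 3542_f_at.

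The limma calls depended more on the settings. Over all probe sets, 61 were higher and 92 lower, against 31 and 372 with deposited intensities, 33 and 54 with no filter, 57 lower with a filter at 200, and 108 and 147 with the replicate block. Leaving out mutant replicate 2 gave 124 higher and 140 lower. Leaving out any other array gave 13 to 24 higher and 23 to 39 lower, fewer than with all arrays. In the 4 gene lists, 1 gene was called higher and 0 lower (at an unadjusted p under 0.05, 15 were higher and 2 lower in limma). With no filter 0 were higher, and with deposited intensities 2 were lower. Leaving out mutant replicate 2 gave 2 higher, leaving out any other array gave 0 higher, and 0 were lower each time. Of the neighbours of YRF1 genes, 1 was called higher and 1 lower. At an unadjusted p under 0.05 in limma, 1 was higher and 5 lower, against 10.7% higher and 8.92% lower over all probe sets. With deposited intensities 4 were called lower, with no filter 0 and with no intensity trend 0. Leaving out mutant replicate 2 gave 3 lower, and leaving out any other array gave 0 to 1 lower. Calls of higher neighbours ranged from 0 to 1 when an array was left out. The replicate block changed no call in the lists or neighbours. Some settings also had fewer arrays or other probe sets in the fit, and the cause of these changes was not tested. Dim probe sets limit the sizes given: 8 of 24 members had a mean signal under 50.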
